A study of Mus musculus with 12 samples.

Results

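The genes described here are 9 neuropeptide precursors and receptors of the circuits that set the breathing rhythm, taken by symbol from the 55418 genes of the count table: the tachykinin precursor *Tac1* with the receptors *Tacr1* and *Tacr3*, the somatostatin precursor *Sst* with its receptor *Sstr2*, and the bombesin-like precursors *Nmb* and *Grp* with their receptors *Nmbr* and *Grpr*. All 9 were in the table and all 9 passed the filter on low counts in each comparison. They were measured in brainstem (medulla and pons) RNA of outbred CFW mice at P15. Each treatment was given to 3 females and 3 males, which makes 4 groups of 3 mice. Morphine mice had received 15 mg/kg morphine subcutaneously 2 times daily from P1 to P14, saline mice had received saline on the same days, and tissue was taken 16 h after the last injection, in spontaneous withdrawal. Each mouse gave 1 library, and the labels name no dam, so littermates could not be told apart from unrelated pups.

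Breathing rhythm arises in the preBötzinger complex, a small group of neurons in the ventral medulla. Substance P, which is cut from the *Tac1* precursor, excites these neurons and speeds the rhythm, somatostatin slows or stops it, and neuromedin B and gastrin-releasing peptide, made by neurons of the neighboring retrotrapezoid and parafacial region, evoke sighs through the receptors encoded by *Nmbr* and *Grpr*. The same neurons carry μ-opioid receptors, through which opioids depress breathing. Because whole brainstem was sequenced, the values below are sums over every cell that makes these transcripts, and fewer cells of a type cannot be told apart from less RNA per cell.

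Library depth ran from 27850565 to 48097947 counts on genes. Saline male 3 differed from saline males 1 and 2 far more than other mice of a group differed from each other (chi-square per degree of freedom of 191.4 and 255.4, against 12.3 to 44.2 for the other pairs). As only mice of the same group were paired, these values cannot tell whether saline male 3 or saline males 1 and 2 were unusual. Levels set against all 12 mice went both ways. For *Sst* and *Pcsk1n*, described below, saline males 1 and 2 were the highest, and saline male 3 lay within the range of the other mice. The summed markers of retrotrapezoid neurons were highest in saline male 3 (534.2 CPM) and lowest in saline male 2 (315.2 CPM). A fit without saline male 3 keeps saline males 1 and 2. In the library labelled morphine male 6, *Xist* stood at 380.4 CPM, and the Y-linked *Ddx3y* at 12.8 CPM, against at most 2.65 and at least 114.9 CPM in the other males. The calls in males are therefore also given without saline male 3 and, separately, without the library labelled morphine male 6. The deposited extraction note names spinal cords. Of 6 *Hox* genes of the thoracic and lumbar cord, the summed level was at most 0.554 CPM in any mouse, while 7 brainstem markers, *Tph2* and *Hoxb4* among them, summed to between 590.8 and 786.4 CPM. No list was made for the cervical cord, so these values do not speak to it.

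The promoters of *Sst*, *Sstr2*, and *Nmb* are printed because *Sst* and *Sstr2* had the largest correlation of a ligand with its receptor and *Nmb* passed the thresholds described below over both sexes and in males. The windows of RefSeq (GRCm38.p6) run from 250 bases before to 50 bases after a gene's start, and 8 of the 9 genes had one. All 8 were searched on both strands for TGACGTCA, the cAMP response element to which CREB binds. Each line holds the 130 bases before the start, 5′ to 3′ on the gene's strand, with the element in capitals.
Sst: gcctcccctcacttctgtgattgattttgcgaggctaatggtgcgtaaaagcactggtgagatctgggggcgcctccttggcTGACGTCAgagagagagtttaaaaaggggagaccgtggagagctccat
Sstr2: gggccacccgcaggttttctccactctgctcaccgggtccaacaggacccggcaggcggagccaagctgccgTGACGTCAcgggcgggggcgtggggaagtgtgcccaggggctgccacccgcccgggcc
Nmb: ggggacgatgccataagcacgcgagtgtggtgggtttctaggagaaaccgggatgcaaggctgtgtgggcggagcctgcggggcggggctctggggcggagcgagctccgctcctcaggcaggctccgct
The *Sst* stretch lies at chr16:23890845-23890974 on the minus strand and the *Sstr2* stretch at chr11:113619197-113619326 on the plus strand. The *Nmb* stretch lies at chr7:80905063-80905192 on the minus strand. The starts used here are those of RefSeq and differ from the gene ends of GENCODE M21 given below. The GENCODE span of *Sst* (23889573 to 23890958) holds most of its stretch, the element included. The first base of the element lay 48 bases before the RefSeq start of *Sst* and 58 bases before that of *Sstr2*. These were the only 2 of the 8 windows with the element, which 1.79% of all 32851 windows held. Its 5-letter part TGACG, present in 20.8% of all windows, was also in the windows of *Tac1*, *Tacr1*, *Tacr3*, and *Grpr*. Neither was found in the windows of *Nmb* and *Nmbr*. These matches describe the letters only, and binding was not measured.

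Set against exon length, the precursors and receptors fell into 4 tiers that did not overlap in any of the 12 mice. *Sst* was the most abundant, at 45.9 ± 17.4 CPM per kb of exon (SD, n = 6) in saline mice. *Tac1* came next at 7.03 ± 0.507 CPM per kb. The third tier held *Tacr3* (3.62 ± 0.601), *Sstr2* (3.15 ± 0.628), *Tacr1* (2.27 ± 0.283), *Nmb* (1.31 ± 0.257), and *Grp* (1.29 ± 0.318 CPM per kb). *Tacr3* and *Sstr2*, and likewise *Nmb* and *Grp*, differed by less than 1 SD. *Sstr2* and *Tacr1* overlapped from mouse to mouse, and *Tacr1* lay above *Nmb* in every saline mouse. *Grpr* and *Nmbr* were the lowest, at 0.625 ± 0.155 and 0.500 ± 0.115 CPM per kb, and their ranges overlapped. Both peptides that evoke sighs and their receptors were measured from few reads: *Nmb* had 28 to 63 counts per library, *Nmbr* 39 to 79, *Grp* 44 to 94, and *Grpr* 18 to 67, against 644 to 2487 for *Sst*. At its lowest count, counting error alone was 18.9% of the level for *Nmb* and 23.6% for *Grpr*, and 3.94% for *Sst*.

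**Figure D1:**
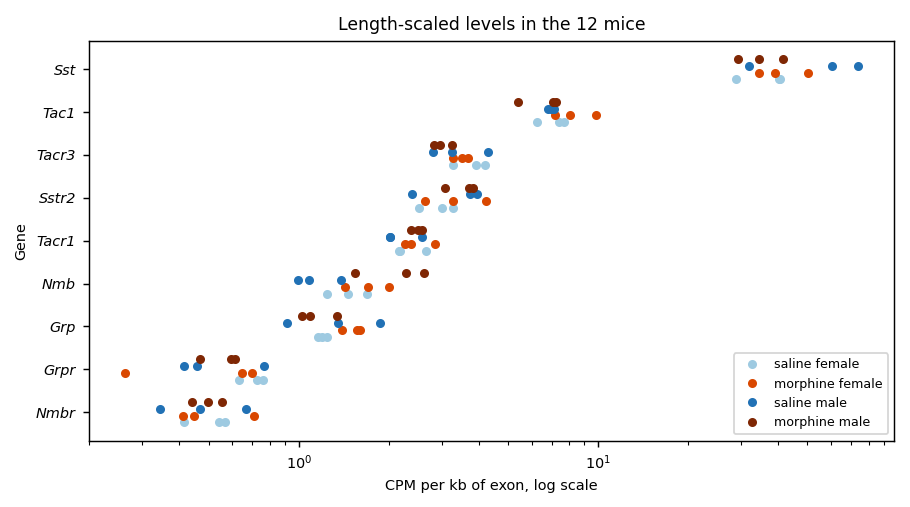
Level of each gene in CPM per kb of exon (horizontal, log scale), with 1 point per mouse colored by group. *Sst* lies above *Tac1* in every mouse, and *Grpr* and *Nmbr* lie below the other genes.

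Morphine was compared with saline over both sexes, in females, and in males, and the interaction of treatment and sex (how far the male change exceeded the female one) was tested beside them. A gene was a DE gene where edgeR's quasi-likelihood test gave an unadjusted *p* under 0.05 and the absolute log2 fold change was over 0.26. In the sex-combined comparison 1 of the 9 genes passed, *Nmb*, where 1.19% of all genes tested did. In females 0 of 9 passed (1.81% of all genes), in males 1 of 9, again *Nmb* (2.99%), and for the interaction 1 of 9, *Sst* (2.94%). None of the 9 had an adjusted *p* under 0.05, and neither did any other gene in edgeR's quasi-likelihood test. Before adjustment 246, 343, 543, and 559 genes were under 0.05 in these 4 tests. With the DESeq2 Wald test 0, 3, 0, and 0 genes were under 0.05 after adjustment. With exactTest, which was not run for the interaction, 0, 3, and 1 genes were. In the quasi-likelihood test without the filter 0, 77, 0, and 1 genes were. In males 5341 of 18652 genes passed both thresholds in the fit without saline male 3, so a pass in that fit was common.

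The direction of the 9 genes was mixed. In the sex-combined fit 6 were higher and 3 lower in morphine mice, with a median log2 fold change of 0.04, where the median of all genes was -0.02. In females 7 were higher and 2 lower, with a median of 0.17 against -0.01 for all genes. In males 4 were higher and 5 lower, and the median was -0.0037, against -0.06 for all genes. The male split depended on the scaling: with DESeq2's size factors 5 were higher and 4 lower, and with total counts 6 were higher and 3 lower, with a median of 0.12 against 0.06 for all genes.

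**Figure D2:**
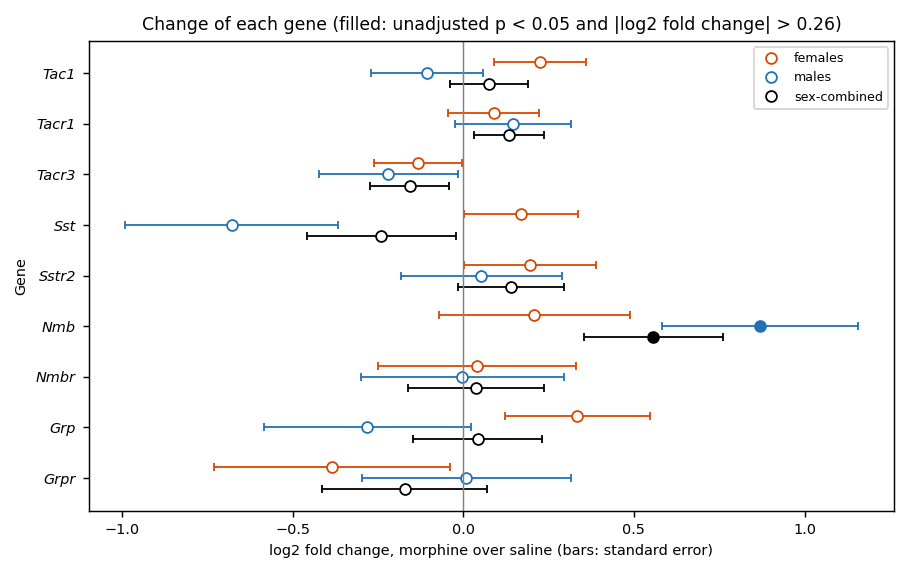
Log2 fold change of morphine over saline (horizontal) for each gene in females, males, and the sex-combined fit, with bars of 1 standard error; filled points passed both thresholds. Only *Nmb* in males (0.87) and in the sex-combined fit (0.56) is filled. *Sst*, *Grp*, *Tac1*, *Nmbr*, and *Grpr* lie on opposite sides of 0 in the 2 sexes, with *Nmbr* (-0.0037) and *Grpr* (0.0083) near 0 in males.

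*Nmb* (ENSMUSG00000025723, chromosome 7, 80902227 to 80905076), the precursor of neuromedin B, was the 1 gene of the 9 that passed in a comparison of morphine with saline, and it was higher in morphine mice. It was at 1.10, 0.790, and 0.859 CPM in saline males 1, 2, and 3, and at 1.23, 2.07, and 1.80 CPM in morphine males 4, 5, and 6. Each morphine male lay above each saline male, a separation that 8.86% of all genes showed in males and 1 of the 9 genes did. The means were 0.915 ± 0.161 and 1.70 ± 0.432 CPM (SD, n = 3 each), a log2 fold change of 0.87 (standard error 0.29), or 1.83-fold. In edgeR's quasi-likelihood test the unadjusted *p* was 0.0193, and after adjustment it was 1.00.

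In females the levels of *Nmb* overlapped. Saline females 4, 5, and 6 had 0.988, 1.16, and 1.34 CPM, and morphine females 1, 2, and 3 had 1.35, 1.13, and 1.59 CPM. The log2 fold change was 0.21 (standard error 0.28, unadjusted *p* = 0.474 in edgeR). The interaction was 0.68 (standard error 0.38) and did not pass, with an unadjusted *p* of 0.0978 in edgeR, so a difference between the sexes was not shown. It passed in 1 of 12 fits without 1 mouse, that without morphine male 4 (0.86, unadjusted *p* = 0.0396 in edgeR). Over both sexes the 6 saline mice lay between 0.790 and 1.34 CPM with a median of 1.04, and the 6 morphine mice between 1.13 and 2.07 CPM with a median of 1.47. The ranges overlapped, as they did for all 9 genes here (0.0376% of all genes were separated over both sexes). The sex-combined log2 fold change was 0.56 (standard error 0.20), or 1.47-fold, with an unadjusted *p* of 0.0170 and an adjusted *p* of 1.00 in edgeR.

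The sex-combined call of *Nmb* did not rest on any 1 mouse. All 12 fits with 1 mouse removed kept it past both thresholds, with log2 fold changes from 0.45, without morphine male 5, to 0.65, without morphine female 2, and unadjusted *p* values in edgeR from 0.00899 to 0.0465. Without saline male 3 it was 0.48, and without the library labelled morphine male 6 it was 0.50. In males alone it passed in 3 of 6 such fits. It did not pass without saline male 2 (0.77), morphine male 5 (0.76), or the library labelled morphine male 6 (0.81), and without saline male 3 it was 0.86 and passed.

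**Figure D3:**
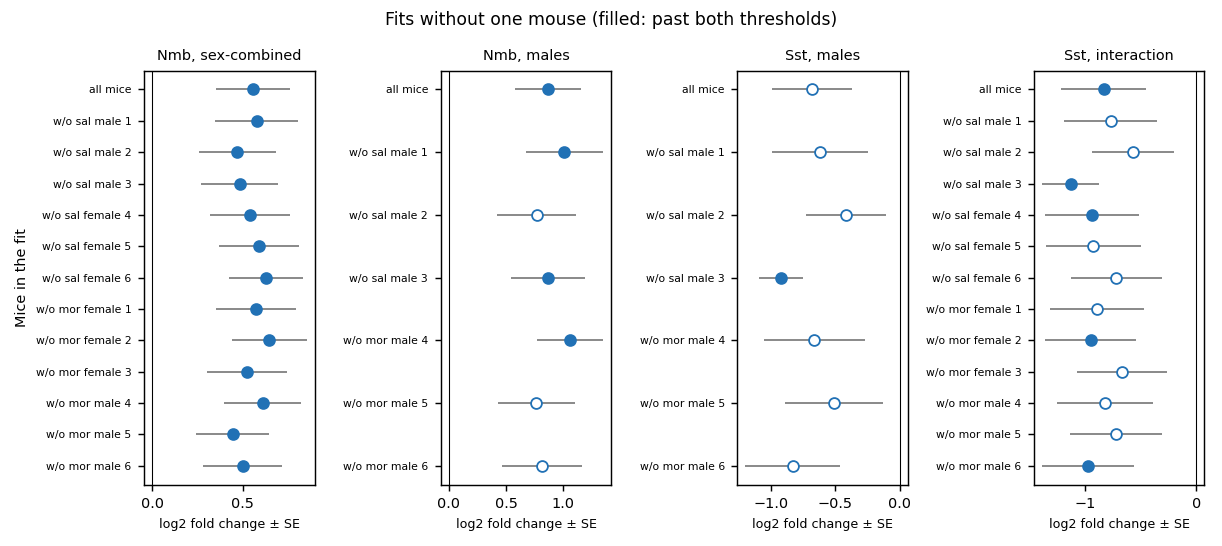
Log2 fold change with its standard error for *Nmb* and *Sst* with all mice and without each mouse in turn; filled points passed both thresholds. *Nmb* passed in all 12 sex-combined fits and in 3 of 6 male fits, and *Sst* passed in males only without saline male 3 and in 4 of 12 fits of the interaction. Without saline male 3, 5341 of 18652 genes passed in males.

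Of the 793 exon bases of *Nmb*, 163 are shared with *Sec11a*, a signal peptidase subunit gene on the same strand, and reads in them could be assigned to either gene or to neither. *Sec11a* stood at 27.0 ± 2.02 CPM with saline and 27.6 ± 2.13 CPM with morphine (SD, n = 6 each), with a sex-combined log2 fold change of 0.03 (standard error 0.08), and of -0.02 (0.14) in males. In males, markers of cerebellar granule cells were higher with morphine: 6 of 6 were, and 3 passed, *Gabra6* (1.35), *Cbln3* (1.08), and *Fat2* (0.81). Their summed level was 124.6 to 152.1 CPM in saline males and 141.8 to 214.7 CPM in morphine males. The same 3 passed with total counts, and they were among the 4 that passed without saline male 3 and the 4 that passed without the library labelled morphine male 6. Morphine male 5, which had the most *Nmb*, also had the highest *Gabra6*, 19.2 CPM. Between the other morphine males the order was reversed. The library labelled morphine male 6 had 1.80 CPM of *Nmb* and 6.44 CPM of *Gabra6*, and morphine male 4 had 1.23 and 7.33 CPM. Among saline mice, saline female 6 was the highest in both, with 1.34 CPM of *Nmb* and 8.74 CPM of *Gabra6*. Saline female 5 had the lowest *Gabra6*, 0.795 CPM, with 1.16 CPM of *Nmb*. The summed level in the library labelled morphine male 6, 141.8 CPM, lay below that in saline male 3, 152.1 CPM. In females these 6 genes summed to 120.7 to 164.1 CPM with saline and 137.2 to 152.3 CPM with morphine, and 0 passed. Markers of the choroid plexus, the tissue that secretes cerebrospinal fluid, were also higher in morphine males, 6 of 6, of which *Folr1* (1.06), *Otx2* (1.02), *Aqp1* (0.72), and *Kl* (0.68) passed. Without saline male 3 *Folr1*, *Otx2*, *Kl*, and *Kcnj13* passed, and without the library labelled morphine male 6 all 6 did. They summed to 262.6 to 519.0 CPM in saline males and 413.6 to 833.7 CPM in morphine males. In females 6 of 6 were lower with morphine, with a median log2 fold change of -0.75, and 0 passed. Their sum varied widely among females, from 8.83 to 467.0 CPM with saline and from 28.4 to 162.6 CPM with morphine. The part of granule cells and of choroid plexus in the *Nmb* values was not tested.

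Genes listed as markers of the retrotrapezoid neurons, CO2-sensing cells in which *Nmb* is strongly expressed, were tested beside it. In whole brainstem their values sum over every cell that makes them, so they do not measure these neurons alone. *Slc17a6* is also in the list for preBötzinger neurons below. Of 5 such markers (*Gpr4*, *Kcnk5*, *Slc17a6*, *Gal*, and *Adcyap1*), 0 were higher in the sex-combined fit and 0 passed, with a median log2 fold change of -0.16. In males 5 of 5 were lower and 1 passed. This was the neuropeptide gene *Gal*, at 6.37, 7.62, and 4.66 CPM in saline males 1, 2, and 3 and at 3.41, 2.57, and 4.73 CPM in morphine males 4, 5, and 6, a change of -0.83 on the log2 scale (standard error 0.30). *Gal* was at -0.96 without saline male 3 and at -1.09 without the library labelled morphine male 6. It passed in both fits beside *Gpr4*. Saline males 1 and 2, which had the highest *Gal* of all mice, stayed in both. These fits therefore do not test whether the call of *Gal* rests on saline males 1 and 2. In these fits 3 of 5 and 4 of 5 markers were lower. With scaling by total counts *Gal* was at -0.70 and did not pass, and 3 of the 5 markers were lower in males.

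*Nmbr* (ENSMUSG00000019865, chromosome 10, 14705591 to 14770850), the receptor for neuromedin B, did not pass in any comparison. It was at 1.51, 1.11, and 2.15 CPM in saline males, 1.80, 1.61, and 1.42 CPM in morphine males, 1.34, 1.74, and 1.83 CPM in saline females, and 1.32, 2.29, and 1.44 CPM in morphine females. The groups overlapped throughout. On the log2 scale the change over both sexes was 0.04 (standard error 0.20), with 0.04 (0.29) in females and -0.0037 (0.30) in males, a value that turned positive under scaling by total counts (0.12) or by DESeq2's size factors (0.016). Its exons share 504 bases with the antisense gene B230364G03Rik, whose level was at most 0.153 CPM in any mouse.

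*Grp*, the precursor of gastrin-releasing peptide, is the other peptide gene of the sigh circuit. Saline females had 1.71, 1.83, and 1.77 CPM and morphine females 2.06, 2.32, and 2.36 CPM, so each morphine female lay above each saline female, as 1 of the 9 genes and 5.67% of all genes did. At 0.33 on the log2 scale (standard error 0.21), *Grp* did not pass (unadjusted *p* = 0.149 in edgeR's quasi-likelihood test). Saline males spread from 1.35 CPM in saline male 3 to 2.01 and 2.76 CPM in saline males 2 and 1, and morphine males had 1.62, 1.51, and 1.98 CPM. In males the value was -0.28 (standard error 0.30), and the interaction was -0.60 (standard error 0.35, unadjusted *p* = 0.115 in edgeR). Without saline male 3 the interaction was -0.84 and passed, in a fit in which 4695 of 19472 genes passed, against 559 with all mice.

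*Grpr* (ENSMUSG00000031364, chromosome X, 163513904 to 163549677), its receptor, was at 1.83, 1.59, and 1.91 CPM in saline females and 1.63, 1.77, and 0.665 CPM in morphine females. The lowest value, in morphine female 3, came from 18 counts. The female log2 fold change was -0.39 (standard error 0.35) with morphine female 3 and -0.07 without it. Saline males had 1.16, 1.05, and 1.93 CPM, morphine males had 1.18 to 1.55 CPM, and the log2 fold change was 0.01 (standard error 0.31).

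**Figure D4:**
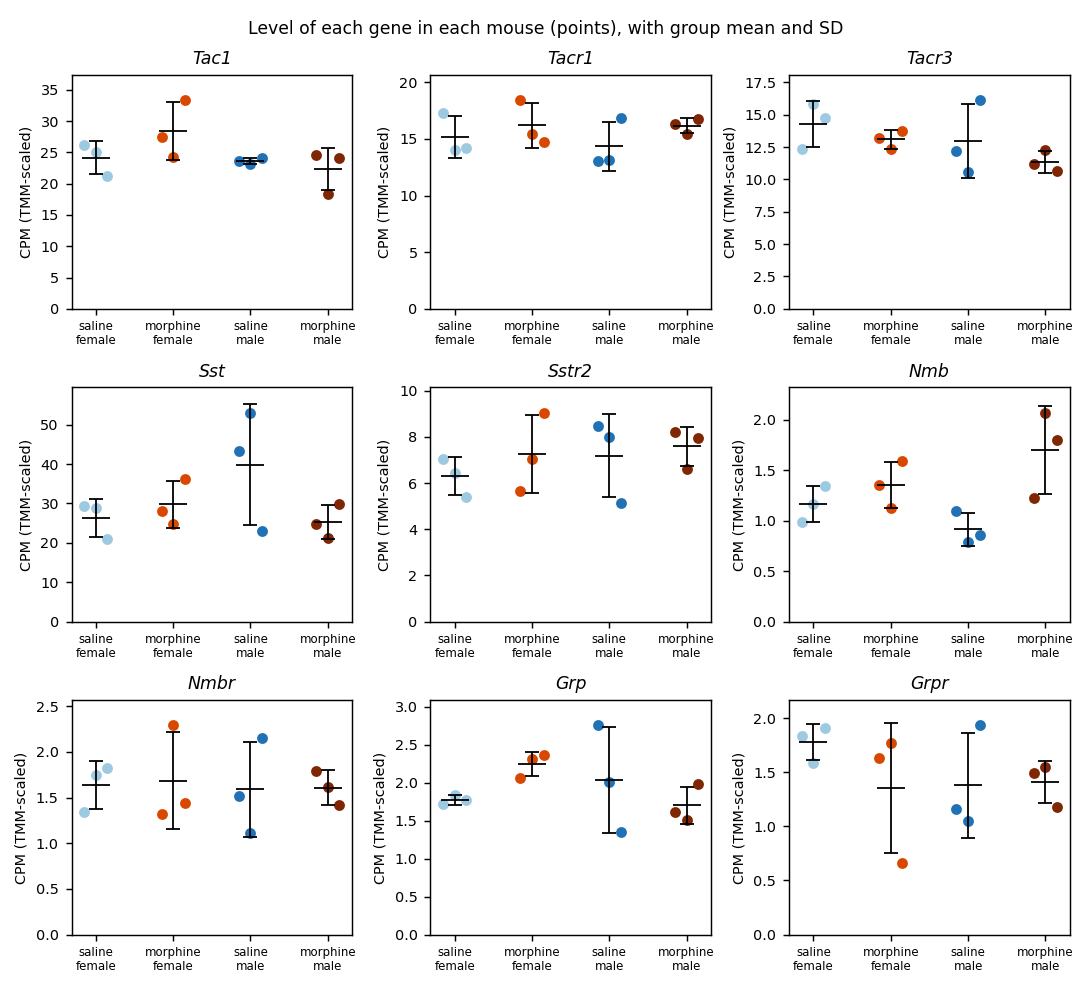
CPM after TMM scaling (vertical) of each gene in each mouse, by group, with the group mean and SD (n = 3). *Nmb* is separated between saline and morphine males and *Grp* between saline and morphine females, and for *Sst* saline males 1 and 2 (43.4 and 53.1 CPM) lie above all other mice.

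*Sst* (ENSMUSG00000004366, chromosome 16, 23889573 to 23890958) was the most variable of the abundant genes. Saline males 1, 2, and 3 had 43.4, 53.1, and 23.0 CPM and morphine males 4, 5, and 6 had 24.8, 21.2, and 29.9 CPM. Saline males 1 and 2 were the highest of the 12 mice, and saline male 3 lay within the range of the morphine males. Saline females had 29.3, 28.9, and 20.9 CPM, and morphine females had 28.2, 24.8, and 36.3 CPM. In males the log2 fold change was -0.68 (standard error 0.31), or 0.624-fold, and did not pass, with an unadjusted *p* of 0.0655 and an adjusted *p* of 1.00 in edgeR's quasi-likelihood test. In females it was 0.17 (standard error 0.17, unadjusted *p* = 0.333 in edgeR). The interaction was -0.83 (standard error 0.38) and passed narrowly, with an unadjusted *p* of 0.04996 and an adjusted *p* of 0.985 in edgeR.

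Both the male value and the interaction of *Sst* varied with the mice in the fit. Without saline male 3 the log2 fold change in males was -0.92 (standard error 0.17), with an unadjusted *p* of 4.32e-04 and an adjusted *p* of 0.0156 in edgeR. In that fit 5341 of 18652 genes passed, so that a passing gene was common. Without saline male 2 it was -0.42 and without saline male 1 it was -0.62, and neither passed. The interaction ranged from -1.13, without saline male 3, to -0.57, without saline male 2, and passed in 4 of the 12 fits without 1 mouse. Those were the fits without saline male 3, in which 4695 of 19472 genes passed, and without saline female 4 (-0.94), morphine female 2 (-0.95), or the library labelled morphine male 6 (-0.97). Without this last library the value in males was -0.83 and did not pass. In females the value was 0.0028 without morphine female 3 and 0.03 without saline female 6.

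The pattern of *Sst* over the 12 mice was shared by many genes. By Pearson's *r* of log2(CPM + 1), 2642 of the 15047 genes searched had an *r* of at least 0.8 with *Sst* and 1282 had one of -0.8 or lower. The corresponding numbers were 901 and 560 for *Tacr3*, 702 and 622 for *Sstr2*, 250 and 94 for *Grpr*, and 186 and 100 for *Nmbr*. They were 51 and 30 for *Tac1*, 21 and 34 for *Grp*, 4 and 2 for *Nmb*, and 1 and 6 for *Tacr1*. The closest genes to *Sst* were *Krtcap2* (0.99), *Adprh* (0.99), and *Gnaz* (0.98). Like *Sst*, *Krtcap2* was higher in saline males 1 and 2 (21.7 and 27.1 CPM) than in saline male 3 (12.5 CPM). The closest to *Tac1* were *Fkbpl* (0.89), *Slc25a20* (0.89), and *Rsl24d1* (0.87), to *Nmb* *Zfp623* (0.84), *Katna1* (0.83), and *Dydc2* (0.81), and to *Grp* *Toe1* (0.87), *H2-M3* (0.86), and *Gfer* (0.85). These values describe 12 libraries, which also differ in depth.

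*Sstr2* (ENSMUSG00000047904, chromosome 11, 113619342 to 113626028), the inhibitory somatostatin receptor of the rhythm-generating neurons, was at 8.45, 7.98, and 5.12 CPM in saline males 1, 2, and 3 and at 8.20, 6.61, and 7.95 CPM in morphine males. As for *Sst*, saline male 3 was the lowest of its group. Saline females had 7.03, 6.45, and 5.40 CPM and morphine females 5.67, 7.05, and 9.05 CPM. Morphine over saline gave log2 fold changes of 0.14 (standard error 0.16) over both sexes, 0.20 (0.19) in females, and 0.05 (0.24) in males, and none passed. Without morphine female 3, which had the highest level, the values were 0.03 over both sexes and 0.0086 in females.

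Over the 12 mice, *Sst* and *Sstr2* had the largest *r* of the 5 ligand and receptor pairs, 0.64 (unadjusted *p* = 0.0240 and adjusted *p* = 0.120 over the 5 pairs, two-sided permutation test). Spearman's rho was 0.69 (permutation *p* = 0.0174, adjusted 0.0872). Many genes had a larger *r* with *Sst* than *Sstr2* did: of 15047 genes searched, 2642 had one of at least 0.8. With *Sstr2*, 702 genes did. The *r* of 0.64 was thus not particular to a ligand and its receptor. Without saline males 1 and 2, the mice farthest from the median of *Sst*, *r* was 0.63. Within the 6 saline mice it was 0.92 and within the 6 morphine mice 0.51. *Grp* and *Grpr* had an *r* of -0.58 (permutation *p* = 0.0502, adjusted 0.125) and a rho of -0.55 (permutation *p* = 0.0716, adjusted 0.179), and without saline males 1 and 3 *r* was -0.48. For *Tac1* and *Tacr1* *r* was 0.21 (permutation *p* = 0.528, adjusted 0.811) and rho 0.45 (0.147, adjusted 0.245). For *Tac1* and *Tacr3* *r* was 0.15 (permutation *p* = 0.649, adjusted 0.811), and for *Nmb* and *Nmbr* it was -0.06 (0.853 before and after adjustment). No pair had an adjusted *p* under 0.05.

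**Figure D5:**
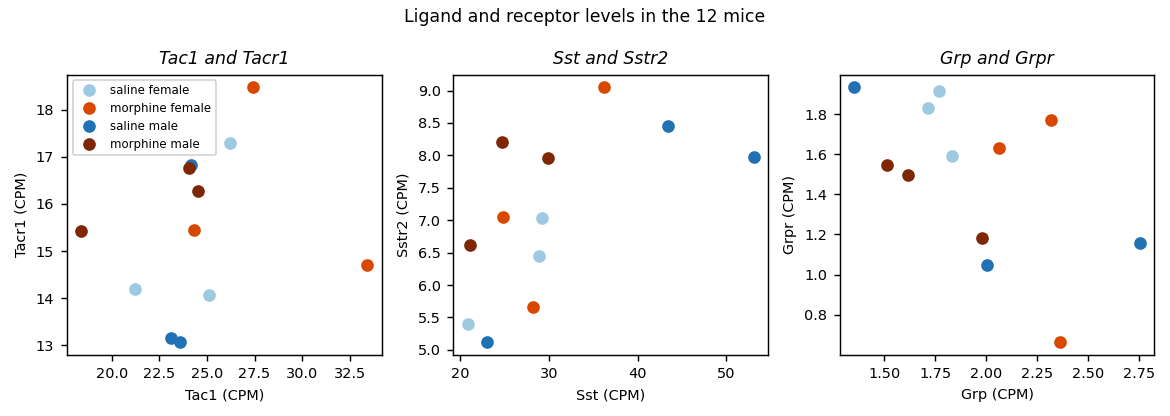
Receptor level (vertical, CPM) against ligand level (horizontal, CPM) for 3 pairs, 1 point per mouse colored by group. *Sstr2* is higher in mice with more *Sst* (*r* = 0.64), *Grpr* is lower in mice with more *Grp* (*r* = -0.58), and *Tac1* and *Tacr1* show a weaker relation (*r* = 0.21). Of 15047 genes searched, 2642 had an *r* of at least 0.8 with *Sst*.

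*Tac1* (ENSMUSG00000061762, chromosome 6, 7554879 to 7565834), which encodes substance P and neurokinin A, was nearly constant in saline males, at 23.6, 23.1, and 24.2 CPM. Morphine males had 24.5, 18.4, and 24.1 CPM, saline females 26.2, 25.1, and 21.2 CPM, and morphine females 27.4, 24.3, and 33.4 CPM. The highest value was in morphine female 3 and the lowest in morphine male 5. The log2 fold change was 0.08 (standard error 0.11) over both sexes, 0.22 (0.14) in females, and -0.11 (0.17) in males, and none passed. In females it passed without morphine female 2 (0.33) and was 0.09 without morphine female 3. The interaction was -0.31 (standard error 0.22, unadjusted *p* = 0.182 in edgeR's quasi-likelihood test).

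*Tacr1* (ENSMUSG00000030043, chromosome 6, 82402334 to 82560104), the substance P receptor by which preBötzinger neurons are commonly recognized, varied little. All 12 mice lay between 13.1 and 18.5 CPM. Saline males had 13.1, 13.1, and 16.8 CPM, and the morphine males 16.3, 15.4, and 16.8 CPM. Saline females had 17.3, 14.1, and 14.2 CPM and morphine females 18.5, 15.5, and 14.7 CPM. Its log2 fold change was 0.13 (standard error 0.10, unadjusted *p* = 0.221 in edgeR) over both sexes, 0.09 (0.13) in females, and 0.14 (0.17) in males. In males it passed without saline male 3 (0.31), a fit in which 5341 of 18652 genes passed.

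*Tacr3* (ENSMUSG00000028172, chromosome 3, 134829007 to 134934579), the receptor that prefers neurokinin B, was the 1 gene of the 9 with a negative value in all 3 comparisons. Saline females had 12.3, 15.8, and 14.7 CPM, morphine females 13.2, 12.3, and 13.8 CPM, saline males 12.2, 10.6, and 16.2 CPM, and morphine males 11.2, 12.3, and 10.6 CPM. The groups overlapped in each sex. None of its log2 fold changes passed, -0.16 (standard error 0.12) over both sexes, -0.13 (0.13) in females, and -0.22 (0.20) in males. Without saline male 3 the value in males was 0.0011.

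The remaining ligand and receptor genes of these peptide families gave no call. Per kb of exon, *Sstr1* (2.94), *Tac2* (2.87), the neurokinin B precursor, and *Sstr3* (2.41 CPM per kb, means of 6 saline mice) were near *Sstr2*, while *Tac4*, *Tacr2*, and *Cort* were at most at 0.0640, 0.267, and 0.266 CPM in any mouse and were not tested. Of the 6 that were tested over both sexes, 1 was higher and 5 lower in morphine mice and 0 passed. In females 5 of 5 were higher, with a median log2 fold change of 0.12, and in males 6 of 6 were lower, with a median of -0.36, and 0 passed in either sex. Without saline male 3 the male median was -0.65 and 3 of the 6 passed, *Sstr1*, *Sstr3*, and *Sstr4*, in a fit in which 5341 of 18652 genes passed. The male medians again held the split among saline males: *Sstr1* was at 10.2 and 9.03 CPM in saline males 1 and 2 and at 3.25 CPM in saline male 3, and *Sstr3* at 14.5, 13.5, and 6.32 CPM. Morphine males lay between, with 4.94 to 6.24 CPM of *Sstr1* and 7.96 to 11.6 CPM of *Sstr3*. The log2 fold changes in males were -0.41 (standard error 0.40) for *Sstr1*, -0.32 (0.34) for *Sstr3*, -0.13 (0.33) for *Tac2*, -0.59 (0.52) for *Sstr4*, -0.59 (0.92) for *Sstr5*, and -0.21 (0.33) for *Brs3*, an orphan receptor of the bombesin family.

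Peptides are cut from their precursors by prohormone convertases and broken down by peptidases, and lists of both kinds were counted. Of 10 processing genes, 0 passed over both sexes or in females. In males 2 were lower, *Pcsk1n*, which encodes an inhibitor of a prohormone convertase (-1.83, standard error 0.67), and *Scg5*, a chaperone of another convertase (-0.30, standard error 0.11). *Pcsk1n* was at 42.0 and 56.6 CPM in saline males 1 and 2 and between 5.45 and 13.1 CPM in the other 10 mice, saline male 3 among them. *Scg5* did not pass with total counts (-0.17), without saline male 3 (-0.23), or without the library labelled morphine male 6 (-0.32), and *Pcsk1n* passed in all 3 fits. Saline males 1 and 2, which held its high values, stayed in all 3, so these fits do not test whether its call rests on them. Of 8 peptidase genes, *Dpp4* was lower in morphine females (-0.67, standard error 0.20), *Ece2*, an endothelin-converting enzyme, was higher in morphine males (0.66, standard error 0.19), and 0 passed over both sexes. Of 10 genes of Gq and Gi signaling, through which the receptors act, 0 passed in any of the 3 comparisons. In males 4 passed without saline male 3, where 5341 of 18652 genes did. Of 5 tested genes associated with preBötzinger neurons, *Reln* was higher in morphine males (0.35, standard error 0.12), and 0 passed in females or over both sexes. These 5 were also measured in whole brainstem, and *Slc17a6* is shared with the retrotrapezoid list. Their values cannot be assigned to preBötzinger neurons.

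Markers of other cells and regions were counted over the same fits. Over both sexes *Gabra6* (0.99), *Cbln3* (0.77), and *Fat2* (0.39) of the granule cell list were higher, and 0 of the 6 passed without saline male 3. *Dcn* (-0.49) of the meningeal fibroblast list was lower, and so was *Hoxb4* (-0.33) of the brainstem list. *Dcn* passed neither without saline male 3 nor without the library labelled morphine male 6, *Hoxb4* did not pass without the latter, and neither passed with total counts. In females 3 of 6 meningeal markers were lower, *Dcn* (-0.76), *Slc13a4* (-1.04), and *Slc6a13* (-0.75), with summed levels of 119.4 to 176.1 CPM with saline and 73.5 to 131.6 CPM with morphine, and the midbrain marker *Slc6a3* (1.84) was higher. For the interaction, *Pcsk1n* (-2.16), *Gal* (-0.90), *Reln* (0.56), *Ece2* (0.94), *Kl* (1.35), *Slc13a4* (1.19), *Slc6a13* (0.84), and *Fat2* (0.89) passed beside *Sst*. None of the markers of forebrain, Purkinje cells, dorsal root ganglion, or neurons in general passed in a comparison of morphine with saline with all mice in the fit. The part of these cells in the values of the 9 genes was not tested.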

How the data were processed

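RNA was measured in 12 brainstem libraries, 1 per mouse. The authors made the deposited counts: they demultiplexed with scruff, trimmed with Trimmomatic, aligned to mm10 with STAR, and counted 100 bp single-end reads on the exons of an Ensembl annotation with featureCounts (versions and strand setting not given in the sources used here). The counts are raw, 27850565 to 48097947 per mouse. Groups came from the labels, which give no dam, so dam was not used, and p-values measure the spread between these mice. Levels are CPM after TMM scaling, and exon lengths come from GENCODE M21. The whole table was fitted with edgeR 4.0.16 in R 4.3.3 (filterByExpr, quasi-likelihood test; over both sexes, sex was a covariate), with DESeq2 1.42.0, exactTest, other scalings, other filters, and fits without each mouse as alternatives. The fits were tested on simulated data. Correlations used log2(CPM + 1) and 100000 permutations. The members and lists were chosen with earlier results of these data known. Named beside the 9 genes were every gene of their families, every gene of the lists that passed, and the 3 genes closest to each precursor. A marker gene that is not reported here was left out of the lists. Proteins were not used here.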

Additional observations from a re-analysis of the deposited data

Results flagged for a closer look

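The interaction of treatment and sex for *Sst* passed the thresholds, as 2.94% of all genes did, but a difference between the sexes was not shown after adjustment. The log2 fold change was -0.68 in males and 0.17 in females, and the interaction was -0.83 (standard error 0.38, unadjusted *p* = 0.04996 and adjusted *p* = 0.985 in edgeR's quasi-likelihood test). Fits without 1 mouse kept the call in 4 of 12 cases, with values from -1.13 (without saline male 3, where 4695 of 19472 genes passed) to -0.57 (without saline male 2). The interaction did not pass with total counts (-0.73) or with at least 10 counts in every library. For each gene the 6 saline and the 6 morphine mice were also searched for a single mouse far from the others, 18 groups in all, and 0 were found, where chance gives about 1 in 20.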

How the results depend on the processing

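*Nmb* passed over both sexes with exactTest, the DESeq2 Wald test, DESeq2's size factors, total counts, no filter, at least 10 counts in every library, no sex covariate, the replicate block, and the threshold on p alone, and it was the 1 gene of the 9 that did. The replicate block gave it 0.54 (standard error 0.18) and changed no call. Same-numbered mice of the treatments are of opposite sex, and their deviations correlated between -0.53 and 0.21. The labels do not say whether the numbers pair the mice, and these values cannot decide it. In males *Sst* passed too, making 2 genes, with exactTest (-0.68), with no filter (-0.69), and with the contrast from the fit of all 12 mice (-0.66). The interaction of *Sst* passed no more, leaving 0 genes, with total counts (-0.73) or with at least 10 counts in every library (-0.82). The cause was not tested. In males, scaling by total counts shifted the median over all tested genes from -0.06 to 0.06 (log2), the value of *Nmb* from 0.87 to 0.99 and that of *Sst* from -0.68 to -0.56.

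Values near 0 changed sign. For *Nmbr* in males these were 0.018 with the DESeq2 Wald test, 0.016 with DESeq2's size factors, 0.12 with total counts, 0.0046 with at least 10 counts, and 0.024 with the contrast from all 12 mice. With total counts *Tac1* in males was 0.020, the interaction of *Tacr3* was 0.034, that of *Nmbr* was 0.077, and *r* of *Nmb* and *Nmbr* was 0.045. *Grpr* in males without a filter was -0.00077.

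Leaving out 1 mouse gave 0 (without saline female 4, among others) to 1 passing gene (*Tac1*, without morphine female 2) in females, 0 (without saline male 2, morphine male 5, or the library labelled morphine male 6) to 3 (*Nmb*, *Sst*, and *Tacr1*, without saline male 3) in males, and 0 (without saline male 1, among others) to 2 (*Sst* and *Grp*, without saline male 3) for the interaction. Over both sexes the ranges that crossed 0 were -0.019 to 0.15 for *Tac1*, -0.092 to 0.14 for *Nmbr*, and -0.046 to 0.20 for *Grp*. In females they were -0.015 to 0.19 for *Tacr1* and -0.25 to 0.19 for *Nmbr*. In males they were -0.18 to 0.071 for *Tac1*, -0.35 to 0.0011 for *Tacr3*, -0.11 to 0.19 for *Sstr2*, -0.22 to 0.31 for *Nmbr*, and -0.16 to 0.36 for *Grpr*. For the interaction they were -0.050 to 0.18 for *Tacr1*, -0.20 to 0.10 for *Tacr3*, -0.34 to 0.062 for *Sstr2*, and -0.23 to 0.27 for *Nmbr*. The *r* of *Nmb* and *Nmbr* ranged from -0.39 to 0.14. The number of genes of the whole table that passed in males was 543 of 18166 with all mice and 5341 of 18652 without saline male 3. The counts of *Nmb*, *Nmbr*, *Grp*, and *Grpr*, at most 94 per library, limit what can be seen of them.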
